A study of Homo sapiens with 18 samples.

Results

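Interstitial matrix collagens and glycoproteins are the secreted proteins that fill the space between cells and anchor them there. The list held 38 genes, chosen by name and function as fibrillar and other collagens, laminin chains, adhesive glycoproteins, fibulins, fibrillins and latent TGF-beta binding proteins (LTBPs). It was drawn up with earlier results of these data known. A listed gene counted as a member where at least 10 reads were counted on it in 3 or more of the 18 libraries, and 34 of the 38 did so, out of 25435 rows of gene symbols. The 4 others were COL1A2 with 0 to 6 reads per library, COL11A1 with 0, FBLN2 with 0 to 4 and COL6A3 with 0 to 12. Nearest above the rule was COL16A1, which reached 10 reads in 14 libraries. The label fits the laminin chains and COL18A1 only loosely, since their proteins are best known from basement membranes. They were kept because the list names them.

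These proteins are made on ribosomes at the endoplasmic reticulum (ER), where collagen chains are hydroxylated, wound into triple helices that the chaperone HSP47 stabilizes, and packed into large COPII carriers, and where glycoproteins are folded and joined by disulphide bonds. Outside the cell fibronectin and collagens form fibrils bound by integrins, fibrillins form microfibrils on which LTBPs hold latent TGF-beta, and fibulins tie elastic fibres together. ERN2, also called IRE1β, is an ER-resident kinase and endoribonuclease of mucus-secreting epithelia. IRE1 enzymes splice XBP1 mRNA and also cut other mRNAs at the ER membrane.

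RNA-Seq was done on HEK293doxERN2 cells, a human embryonic kidney line that carries a doxycycline-inducible FLAG-tagged human ERN2 transgene, which all groups share. Cells received doxycycline at 0 ng/mL (No ERN2), 10 ng/mL (Low ERN2) or 100 ng/mL (High ERN2) for 24 hours, and then either DMSO as vehicle (control) or 200 nM thapsigargin (stress), which empties the calcium store of the ER, for 3 hours. Each of the 6 groups had 3 libraries. No group without the transgene received doxycycline, so the drug and ERN2 cannot be told apart, and the sources used here do not say whether the line is 1 clone or whether replicates were separate cultures, so p-values measure the spread between these libraries.

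Library totals ran from 14876416 to 24652240 counted reads, so precision was set by the spread of 3 libraries more than by counting. ERN2 itself was at 6.57 to 9.10 CPM (counts per 1000000, TMM-scaled) in No ERN2 control cells, at 22.5 to 55.9 CPM in Low ERN2 and at 249 to 309 CPM in High ERN2, and in stressed cells at 10.4 to 14.2, 32.1 to 112 and 175 to 272 CPM. Within each treatment the 3 ERN2 levels followed the labels and did not overlap. Replicate 3 of both Low ERN2 groups had the most ERN2 of its group. The extraction label names colon crypt cells, so cell markers were checked: all 8 HEK293 markers had 10 or more reads in every library, while 8 of 10 colon crypt markers were at 0 to 5 reads per library, the exceptions being CDX2 at 56 to 161 and LGR5 at 172 to 621. A list of 8 markers of fibroblasts, the cells that make most interstitial matrix in tissue, summed to 1.64 to 4.51 CPM. TWIST2 was at 13 to 48 reads per library, PDGFRA at 5 to 39, LUM at 0 to 20 and the rest at 0 to 9.

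Matrix genes took a smaller share of the reads in cells with High ERN2. In No ERN2 control cells the 34 genes held 0.509%, 0.465% and 0.513% of a library's counted reads, and in High ERN2 control cells 0.186%, 0.184% and 0.185%. Low ERN2 control libraries lay between, at 0.367%, 0.416% and 0.304%. Under thapsigargin the shares were 0.463%, 0.431% and 0.411% without ERN2, 0.341%, 0.321% and 0.230% at Low ERN2 and 0.140%, 0.106% and 0.115% at High ERN2. At each vehicle or thapsigargin setting the 3 ERN2 levels did not overlap. The lowest share in both Low ERN2 groups was in replicate 3, and so it was in stressed cells without ERN2. Much of the sum was fibronectin, and a share of reads cannot separate fewer expressing cells from less RNA per cell.

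**Figure D1:**
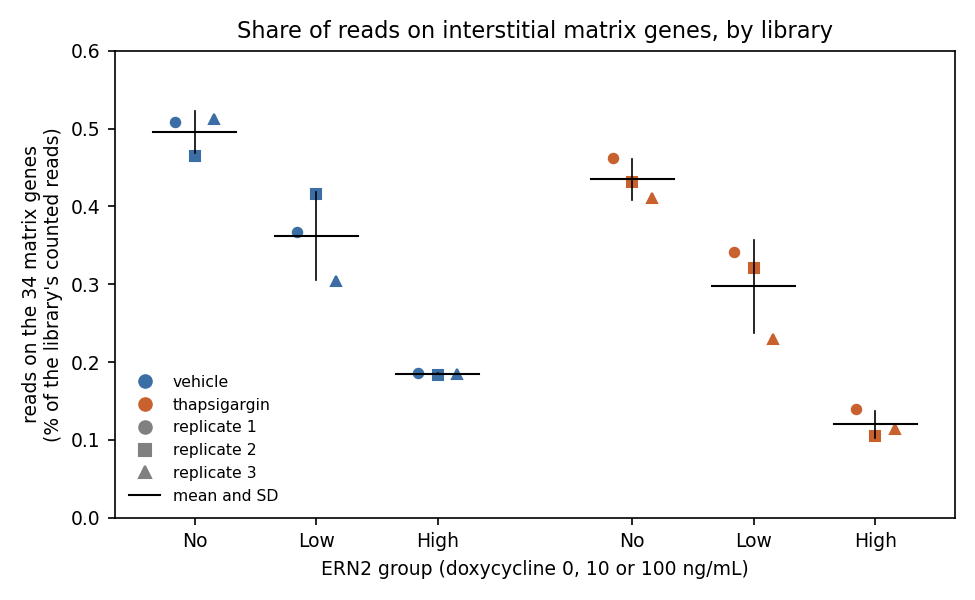
Percent of each library's counted reads that fell on the 34 matrix genes, by ERN2 group (x axis) and treatment (colour). Points are libraries, horizontal bars are means and vertical bars SD (n = 3). High ERN2 libraries lie at 0.106% to 0.186%, below all others.

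High ERN2 was compared with No ERN2 in control cells to find which genes differed with induction and without added stress. Of the 34 matrix genes, 20 were lower and 0 higher (edgeR quasi-likelihood test, Benjamini-Hochberg adjusted p under 0.01 over 14444 genes), which is 58.8% lower, beside 7.49% of all genes tested that were lower and 0.838% that were higher. The members' median log2 fold change was -1.14, against -0.01 over all genes. The decrease touched every class: 3 of 8 fibrillar collagens, 3 of 6 other collagens, 4 of 6 laminin chains, 3 of 5 adhesive glycoproteins, 3 of 4 fibulins and 4 of 5 fibrillins and LTBPs. In 23 of the 34 all High ERN2 libraries lay below all No ERN2 libraries, which was so for 16.1% of all genes, and in 3 they lay above (19.7% of all genes).

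Because IRE1 enzymes cut RNA, the coding sequences were searched for CTGCAG, the core of the loop at the 3′ splice site of XBP1 mRNA, which reads the same on both strands. The letters were found in the longest coding sequence (GENCODE release 29, GRCh38) of each of the 20 genes that fell, with a median of 6 matches or 1.23 per kb, and in 13 of the 14 other members, with a median of 4 or 1.0 per kb. Among all 12745 tested genes with a coding transcript 71.1% held it, with a median of 0.864 per kb and a shorter median coding sequence, 1461 bases against 5017.5 in the members. Members with and without a call were found at both high and low match counts. COL1A1 held 0 and was not called. LAMA5 held 28 and LAMA3 held 14, and neither was called. VCAN held 3, or 0.294 per kb, and fell. A match describes letters and is not a measured cut. Untranslated regions and RNA folding were not searched, and whether ERN2 cuts these mRNAs was not tested. A match with 12 bases on each side is printed for 3 genes that fell and 2 that were not called. All are on the coding strand, 5′ to 3′, with CTGCAG in capitals. The LAMA5 stretch holds 2 matches. They lie in exon 12 of FBLN1 (chr22:45543462-45543491, plus strand), exon 29 of COL2A1 (chr12:47984092-47984121, minus), exon 40 of COL5A1 (chr9:134804976-134805005, plus), exon 14 of LAMA5 (chr20:62338118-62338147, minus) and exon 13 of LAMA3 (chr18:23810391-23810420, plus).
FBLN1, lower: gggctcctacctCTGCAGctgttccgtggg
COL2A1, lower: gtgagacaggtgCTGCAGgaccccctggcc
COL5A1, lower: gtgacccaggccCTGCAGgcctccctggga
LAMA5, not called: gtggCTGCAGccCTGCAGgaaccttgcccg
LAMA3, not called: ctaccagatgccCTGCAGctcagtgactgg

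Among the fibrillar collagens, which build the striated fibrils of tissue, COL2A1, COL3A1 and COL5A1 fell. COL2A1, the cartilage type II chain, was at 70.4, 60.8 and 72.1 CPM without ERN2 and at 9.44, 12.5 and 14.1 CPM with High ERN2. The groups lay far apart, with a log2 fold change of -2.53 (SE 0.16, adjusted p = 4.26e-07 by edgeR). COL5A1, whose type V chain helps start type I fibrils, was at 202, 208 and 215 CPM and at 54.3, 51.4 and 51.8 CPM, a log2 fold change of -2.03 (SE 0.101, adjusted p = 1.31e-07). COL3A1, the chain of type III collagen, was a low gene at 6.15, 5.21 and 5.43 CPM without ERN2 and at 0.887, 1.40 and 1.28 CPM with it, a log2 fold change of -2.26 (SE 0.23, adjusted p = 2.28e-05). The other 5 fibrillar chains did not pass the test. COL1A1, the larger type I chain, was at 25.1, 19.2 and 23.0 CPM and at 18.4, 23.7 and 16.7 CPM, and these groups overlapped (log2 fold change -0.23, adjusted p = 0.372). COL1A2, its partner in type I collagen, was almost without reads in every library. COL27A1 was at 19.3 to 22.4 CPM and at 30.1 to 30.7 CPM, above without overlap, yet missed the threshold (log2 fold change 0.48, adjusted p = 0.0195), and COL5A3 missed it from the other side (log2 fold change -1.14, adjusted p = 0.0132). COL5A2 and COL11A2 had log2 fold changes of 0.34 and 0.20.

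The other collagens include network formers, beaded filaments and the chains that sit on fibril surfaces. COL12A1, a fibril-associated chain, was at 218, 264 and 330 CPM without ERN2 and at 114, 103 and 115 CPM with High ERN2 (log2 fold change -1.33, SE 0.14, adjusted p = 2.92e-05 by edgeR). The groups did not overlap. COL18A1, the source of endostatin, was at 151, 148 and 143 CPM and at 53.1, 73.6 and 55.6 CPM (log2 fold change -1.32, SE 0.135, adjusted p = 2.44e-05). COL6A2, which forms beaded filaments, was at 83.5, 67.5 and 72.5 CPM and at 32.2, 39.4 and 31.8 CPM (log2 fold change -1.15, SE 0.134, adjusted p = 6.63e-05). All 3 fell by a similar size. COL9A2 and COL9A3, chains of the type IX collagen of cartilage, had log2 fold changes of -0.90 and -0.70 without a call, and COL16A1, under 1 CPM in every control library, -0.20. COL18A1 shares 16.4% of its exon bases with SLC19A1 on the opposite strand, and whether counting used strand is not given in the sources used here.

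Laminins are heterotrimers of an alpha, a beta and a gamma chain. LAMA1, the alpha chain of the laminin of early embryos, was at 187, 176 and 151 CPM without ERN2 and at 60.8, 61.5 and 51.2 CPM with High ERN2 (log2 fold change -1.61, SE 0.123, adjusted p = 2.28e-06 by edgeR). LAMA1 shares 10.3% of its exon bases with AP002409.1 on the opposite strand. LAMA4, an alpha chain of vessels and muscle, was at 115, 116 and 119 CPM and at 52.4, 47.4 and 53.6 CPM (log2 fold change -1.23, SE 0.104, adjusted p = 5.04e-06). LAMC3, a gamma chain, was at 17.8, 16.4 and 14.0 CPM and at 5.53, 5.35 and 6.70 CPM (log2 fold change -1.50, SE 0.162, adjusted p = 3.65e-05). In these 3 the groups were well separated. LAMB2, a beta chain of kidney and synapse, was at 202, 171 and 155 CPM and at 99.1, 124 and 95.9 CPM, also without overlap (log2 fold change -0.77, SE 0.136, adjusted p = 0.00179), but it was not called without No ERN2 control replicate 1 (log2 fold change -0.65, adjusted p = 0.0118). LAMA5 and LAMA3 were not called. LAMA5 was at 115, 96.9 and 105 CPM and at 75.3, 93.8 and 74.2 CPM, just separated (log2 fold change -0.42, adjusted p = 0.0439), while LAMA3, an epithelial alpha chain, was at 66.8, 63.2 and 90.7 CPM and at 70.6, 60.4 and 77.1 CPM, with overlapping groups (log2 fold change -0.13, adjusted p = 0.596).

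FN1, encoding the fibronectin that links cells to fibrils, was the most abundant member per length, at 241 CPM per kb of transcript without ERN2 against 44.5 for FBLN1 and 35.7 for LTBP3, the next in order. It was at 2132, 1971 and 2333 CPM without ERN2 and at 547, 539 and 566 CPM with High ERN2. Every High ERN2 library lay far below, at a fitted 24.9% of the uninduced level (log2 fold change -2.00, SE 0.103, adjusted p = 1.67e-07 by edgeR). VCAN, the large proteoglycan versican, was at 192, 229 and 177 CPM and at 87.4, 59.7 and 78.1 CPM (log2 fold change -1.46, SE 0.146, adjusted p = 2.06e-05). TNC, the anti-adhesive glycoprotein tenascin-C, was at 220, 213 and 264 CPM and at 95.9, 113 and 122 CPM (log2 fold change -1.11, SE 0.126, adjusted p = 5.17e-05). The thrombospondins stood apart from these 3. THBS1, which can release latent TGF-beta, was at 99.5, 103 and 117 CPM and at 90.5, 99.9 and 90.1 CPM, with overlapping groups (log2 fold change -0.23, adjusted p = 0.185). THBS3 had a log2 fold change of 0.68 that did not pass the test (adjusted p = 0.0469), and 22.2% of its exon bases lie opposite AC234582.1.

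FBLN1, a fibulin that binds fibronectin and laminin, had the largest decrease of the 34 members in this comparison. It was at 114, 105 and 95.4 CPM without ERN2 and at 17.7, 19.0 and 16.9 CPM with High ERN2, 16.6% of the uninduced level in the fit (log2 fold change -2.59, SE 0.124, adjusted p = 1.06e-07 by edgeR). FBLN5, an elastic fibre organizer, was at 13.7, 11.7 and 12.6 CPM and at 4.07, 3.50 and 4.09 CPM (log2 fold change -1.75, SE 0.16, adjusted p = 9.62e-06). EFEMP1, or fibulin-3, was at 15.7, 16.6 and 14.8 CPM and at 8.97, 6.71 and 8.08 CPM (log2 fold change -1.03, SE 0.152, adjusted p = 0.000421). The groups did not overlap in any of the 3. EFEMP2, or fibulin-4, was not called, with a log2 fold change of -0.52.

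Fibrillins and LTBPs form the microfibrils that store TGF-beta. LTBP1 was at 65.1, 62.0 and 69.1 CPM without ERN2 and at 15.1, 16.8 and 17.8 CPM with High ERN2 (log2 fold change -2.02, SE 0.124, adjusted p = 3.73e-07 by edgeR). FBN1, the main adult fibrillin, was at 109, 110 and 106 CPM and at 34.9, 32.7 and 31.6 CPM (log2 fold change -1.76, SE 0.107, adjusted p = 3.61e-07). Neither gene had overlapping groups. FBN2, the fibrillin of developing tissue, was at 242, 245 and 277 CPM and at 104, 99.8 and 107 CPM (log2 fold change -1.34, SE 0.103, adjusted p = 2.29e-06). LTBP3 was at 185, 151 and 140 CPM and at 66.4, 83.6 and 67.3 CPM (log2 fold change -1.17, SE 0.138, adjusted p = 7.32e-05). Both again fell without overlap, whereas LTBP4 was not called, with a log2 fold change of -0.31. TGFB1, a ligand that LTBPs hold, fell as well (log2 fold change -1.03, adjusted p = 0.000132), and it was the only 1 of 3 TGF-beta ligand genes to pass.

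**Figure D2:**
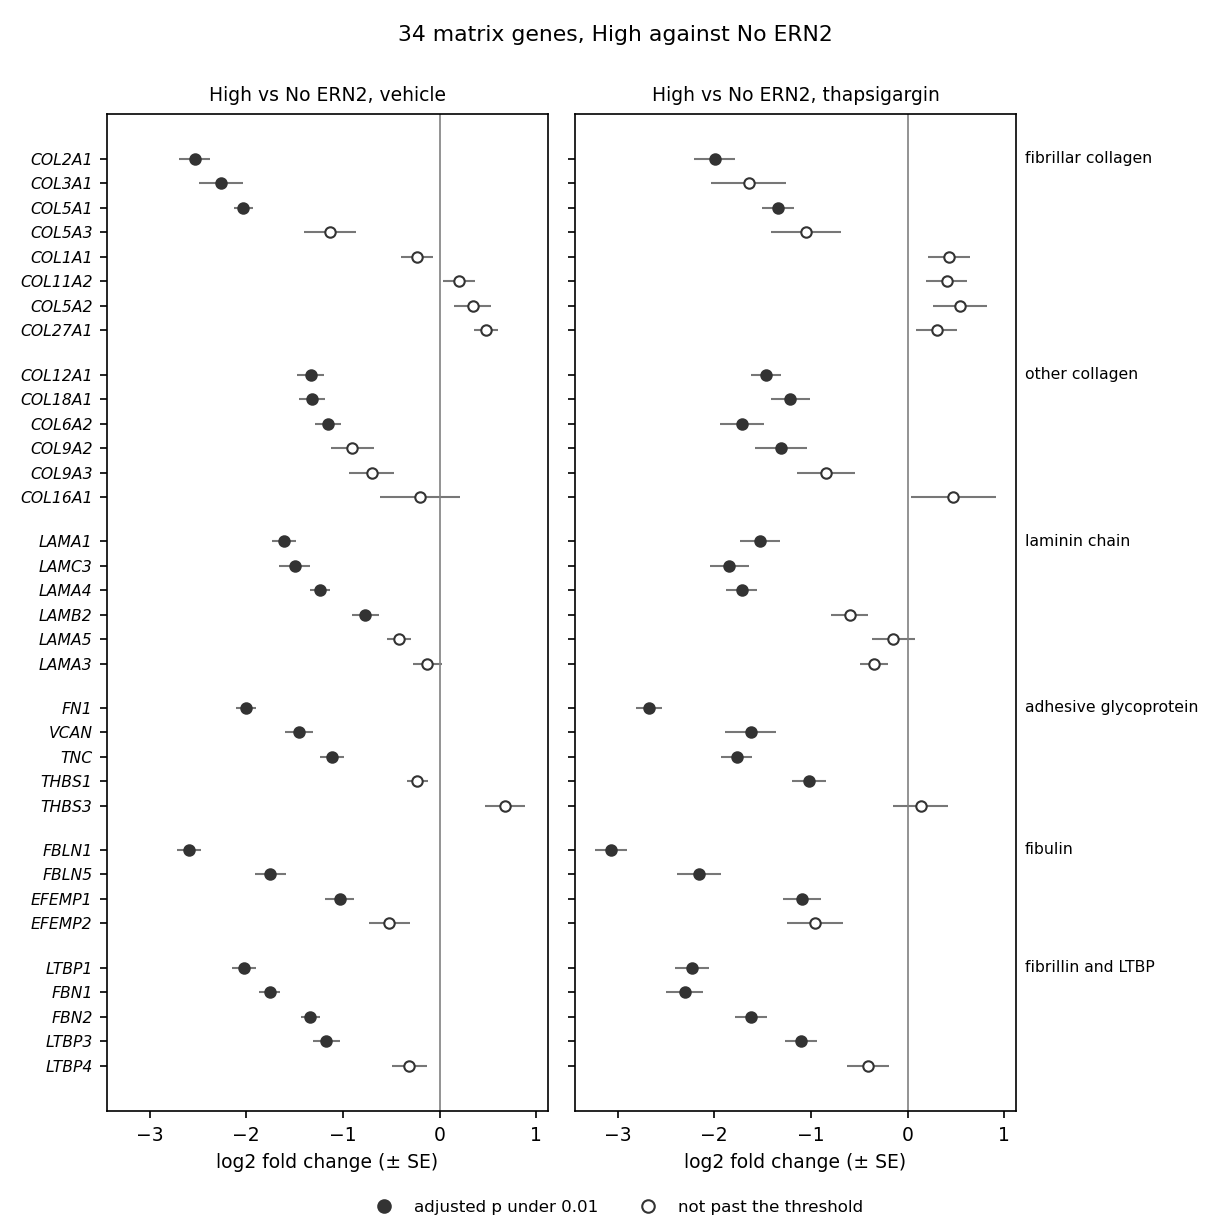
Log2 fold change of High against No ERN2 for the 34 matrix genes, in vehicle-treated (left) and thapsigargin-treated cells (right), grouped by class. Bars are SE and filled points have an edgeR adjusted p under 0.01, 20 genes in each panel, all below 0. The panels use separate libraries.

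High ERN2 was also compared with No ERN2 in thapsigargin-treated cells, where no library is shared with the control comparison. Here too 20 of 34 members were lower and 0 higher (58.8% lower, beside 9% of all genes lower and 1.53% higher), with a median log2 fold change of -1.26 against 0.04 over all genes. All High ERN2 libraries lay below all No ERN2 libraries in 25 members (20.4% of all genes) and above in 2 (16.1%). FBLN1 was at 94.2, 89.7 and 85.4 CPM in stressed cells without ERN2 and at 11.4, 10.9 and 9.86 CPM with High ERN2. This was the largest decrease of the members here as well (log2 fold change -3.07, SE 0.163, adjusted p = 5.11e-07 by edgeR). FN1 was at 2127, 2023 and 1981 CPM and at 350, 288 and 323 CPM (log2 fold change -2.68, SE 0.131, adjusted p = 5.11e-07). THBS1 and COL9A2 were called in stressed cells but not in control cells. THBS1 was at 164, 122 and 192 CPM and at 89.3, 67.0 and 79.7 CPM (log2 fold change -1.02, SE 0.174, adjusted p = 0.00126), and COL9A2 at 8.45, 6.94 and 6.49 CPM and at 3.82, 2.96 and 2.07 CPM (log2 fold change -1.31, SE 0.27, adjusted p = 0.00439). Each pair of groups was separated, but THBS1 was not called by edgeR without High ERN2 stress replicate 2 (log2 fold change -0.92, adjusted p = 0.0165). COL9A2 was not called without No ERN2 stress replicate 1 or 2 or High ERN2 stress replicate 2 or 3 (log2 fold changes -1.10 to -1.33, adjusted p by edgeR 0.0111 to 0.0311). COL3A1 and LAMB2 were called in control cells only, with log2 fold changes of -1.65 (adjusted p = 0.01) and -0.60 (adjusted p = 0.0428) under stress. Whether any of these 4 genes differed between the settings is the interaction given further on. None passed there, which does not show that they responded alike. EFEMP1, called in both settings, lost its call under stress without No ERN2 stress replicate 1 or 2. Its log2 fold changes were then -1.08 and -1.05 (adjusted p by edgeR 0.0126 and 0.0122).

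The intermediate dose was compared next. In control cells 0 of 34 members passed at Low ERN2 against No ERN2 (0.0552% of all genes lower, 0.138% higher), while 15 had an unadjusted p under 0.05 (44.1%, beside 30.5% of all genes) and DESeq2 called 8 (23.5%, beside 3.26%). The members' median log2 fold change was -0.18 against 0.00 over all genes, and all Low ERN2 libraries lay below all No ERN2 libraries in 15 (15.3% of all genes) and above in 1 (14.4%). Without Low ERN2 control replicate 1 the edgeR test called 9 members (26.5%), and 18.8% of all genes, so both edgeR counts depended on that library. FN1 was at 1423, 1633 and 1060 CPM with Low ERN2, below each No ERN2 library (log2 fold change -0.65, SE 0.138, adjusted p = 0.0519). FBLN1 was at 71.9, 91.3 and 41.7 CPM (log2 fold change -0.62, SE 0.211, adjusted p = 0.0899). COL5A1 was at 126, 154 and 114 CPM (log2 fold change -0.67, SE 0.118, adjusted p = 0.021). In FN1, FBLN1 and COL5A1 the lowest library was replicate 3, which had the most ERN2. Replicate 3 was also the lowest for each of these genes in stressed cells without ERN2. In No ERN2 control cells it was the lowest for FBLN1 and the highest for FN1 and COL5A1. Whether levels followed ERN2 within a group was not tested. COL2A1 behaved unlike them, with 52.8, 75.3 and 74.4 CPM at Low ERN2 and a log2 fold change of -0.01, so that its groups overlapped.

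High ERN2 against Low ERN2 in control cells gave 14 members lower and 0 higher (41.2% lower, beside 2.43% of all genes lower and 0.0137% higher), with a median log2 fold change of -0.76 against 0.02. All High ERN2 libraries lay below all Low ERN2 libraries in 24 members (12.9% of all genes) and above in 1 (10%). COL2A1 led these with -2.51 (SE 0.189, adjusted p = 0.00124 by edgeR), followed by FBLN1 at -1.96 (SE 0.247, adjusted p = 0.00285). FBLN5, COL3A1, COL5A1, FN1, LTBP1, FBN1, COL6A2 and COL18A1 lay between -1.53 and -1.09, and LAMA1, FBN2, TNC and LTBP3 between -0.98 and -0.91. The count rested on single libraries, as did that over all genes. Without High ERN2 control replicate 3 it was 0, with 0 of all genes, without Low ERN2 control replicate 2 it was 2, with 9 of all genes, and without High ERN2 control replicate 1 it was 3, with 21 of all genes. The fold changes moved little without High ERN2 control replicate 3, with COL2A1 at -2.66, FBLN1 at -1.94 and FN1 at -1.38. An unadjusted p under 0.05 was found for 28 members (82.4%, beside 16.1% of all genes), and for 22 to 28 with any 1 library left out.

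In stressed cells Low against No ERN2 gave 0 calls among members and 0% of all genes in each direction by edgeR, with 12 members at an unadjusted p under 0.05 (35.3%, beside 4.22% of all genes) and 1 called by DESeq2 (2.94%, beside 0.342%). Low ERN2 libraries lay below all No ERN2 libraries in 13 members (5.4% of all genes) and above in 2 (4.6%). Same-numbered libraries of these 2 groups deviated together, with correlations of 0.400, 0.344 and 0.468 over genes. Without a block, 0 of 14509 genes passed by edgeR at an adjusted p of 0.05 either. The replicate number was used as a block here because of these correlations. With that block 13 members were lower and 0 higher (2.53% of all genes lower, 1.36% higher). FN1 was at 1427, 1343 and 789 CPM with Low ERN2, below every No ERN2 library (log2 fold change -0.84, SE 0.0867, adjusted p = 3.01e-06 with the replicate block). FBLN1, at 60.4, 54.6 and 30.6 CPM, was also separated (log2 fold change -0.94, SE 0.104, adjusted p = 5.40e-06 with the block). The other 11 called with the block were COL5A1, COL12A1, LAMA1, LAMA4, TNC, VCAN, FBLN5, FBN1, FBN2, LTBP1 and LTBP3.

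**Figure D3:**
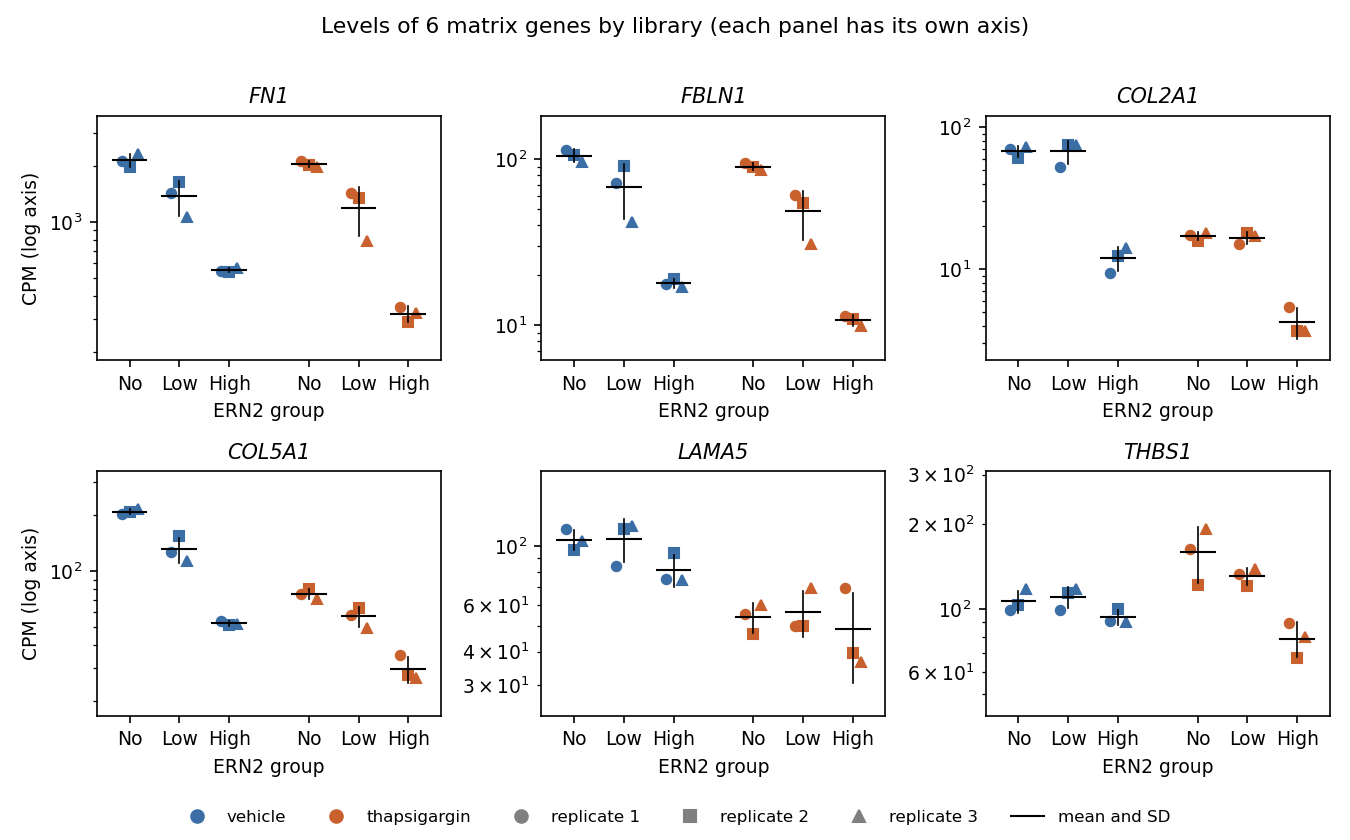
CPM of 6 matrix genes in every library, on log axes that differ between panels, by ERN2 group and treatment. Points are libraries, horizontal bars means and vertical bars SD (n = 3). FN1 and FBLN1 step down with ERN2 in both treatments and barely differ between treatments without ERN2, COL2A1 is low in stressed cells already without ERN2, and LAMA5 and THBS1 overlap between No and High ERN2 in 1 of the treatments.

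Thapsigargin was compared with vehicle in cells without induced ERN2 to separate ER stress itself. Here 9 of 34 members were lower and 0 higher (26.5% lower, beside 4.74% of all genes lower and 6.45% higher), with a median log2 fold change of -0.27 against -0.01. They were 4 of 8 fibrillar collagens, COL18A1, 3 laminin chains and LTBP3, with 0 of 5 adhesive glycoproteins and 0 of 4 fibulins. All stressed libraries lay below all control libraries in 19 members and above in 1, which was so for 20% of all genes in each direction.

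COL2A1 was at 17.3, 15.9 and 18.0 CPM in stressed cells without ERN2, far under the 60.8 to 72.1 CPM of their controls (log2 fold change -1.98, SE 0.123, adjusted p = 4.01e-07 by edgeR). COL5A1 was at 75.0, 80.2 and 70.6 CPM (log2 fold change -1.46, SE 0.101, adjusted p = 9.97e-07). COL1A1 was at 10.7, 9.98 and 14.8 CPM (log2 fold change -0.91, SE 0.168, adjusted p = 0.00209). Each stayed below all of its control libraries. So did COL3A1, at 2.38, 3.68 and 2.62 CPM (log2 fold change -0.94, SE 0.213, adjusted p = 0.00715), but its call was lost without any 1 of 5 libraries, all but No ERN2 stress replicate 2 (log2 fold changes -0.81 to -0.99, adjusted p 0.0117 to 0.0353). COL18A1 was at 60.4, 69.0 and 69.5 CPM (log2 fold change -1.14, SE 0.103, adjusted p = 1.03e-05). Among the laminins, LAMA5 was at 55.3, 46.6 and 60.0 CPM (log2 fold change -0.96, SE 0.121, adjusted p = 0.000155). This chain fell with thapsigargin without a call for High ERN2. LAMA1 was at 104, 112 and 65.0 CPM (log2 fold change -0.86, SE 0.17, adjusted p = 0.00352) and LAMB2 at 120, 127 and 103 CPM (log2 fold change -0.58, SE 0.123, adjusted p = 0.00495), both under all of their controls. LTBP3 was at 112, 112 and 106 CPM (log2 fold change -0.52, SE 0.115, adjusted p = 0.00657). The count of 9 fell to 4 without No ERN2 control replicate 1 (COL1A1, COL3A1, LAMA1, LAMB2 and LTBP3 not called, adjusted p 0.0149 to 0.0426) and to 5 without No ERN2 stress replicate 1, beside 5.02% and 6.22% of all genes. Without No ERN2 stress replicate 2, COL1A1 and LTBP3 were not called (adjusted p = 0.011 and 0.0191).

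Of the genes that fell most with High ERN2, COL2A1, COL3A1 and COL5A1 were called with thapsigargin, as given above. FN1, FBLN1 and FBN1, which also fell with High ERN2, were not called. FN1 had a log2 fold change of -0.06 (SE 0.104, adjusted p = 0.716), FBLN1 of -0.22 (SE 0.106, adjusted p = 0.163) and FBN1 of -0.12 (SE 0.122, adjusted p = 0.513). FN1 and FBN1 overlapped between treatments, while FBLN1 was separated by a small gap. THBS1 lay above without overlap, at 164, 122 and 192 CPM against 99.5 to 117 CPM, and narrowly missed the threshold (log2 fold change 0.59, SE 0.145, adjusted p = 0.0113). Both comparisons use the No ERN2 control libraries, so the values are given side by side and were not tested against each other.

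In cells with High ERN2, thapsigargin gave 0 calls among members by edgeR (0.0208% of all genes lower, 0.18% higher), while 18 had an unadjusted p under 0.05 (52.9%, beside 27% of all genes) and DESeq2 called 9 (26.5%, beside 5.62%). The median was -0.54 against 0.00 over all genes, and stressed libraries lay below all control libraries in 17 members (15.1% of all genes) and above in 0 (10.7%). Without High ERN2 stress replicate 1 the edgeR count was 14 members (41.2%), beside 17.6% of all genes. With library totals in place of TMM, 23 of the 51 genes called among all were lower, against 3 of 29. COL2A1 was at 5.46, 3.66 and 3.67 CPM, below its 3 controls (log2 fold change -1.47, SE 0.239, adjusted p = 0.0162). FN1 had a log2 fold change of -0.76 (SE 0.12, adjusted p = 0.0137), with all stressed libraries below.

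**Figure D4:**
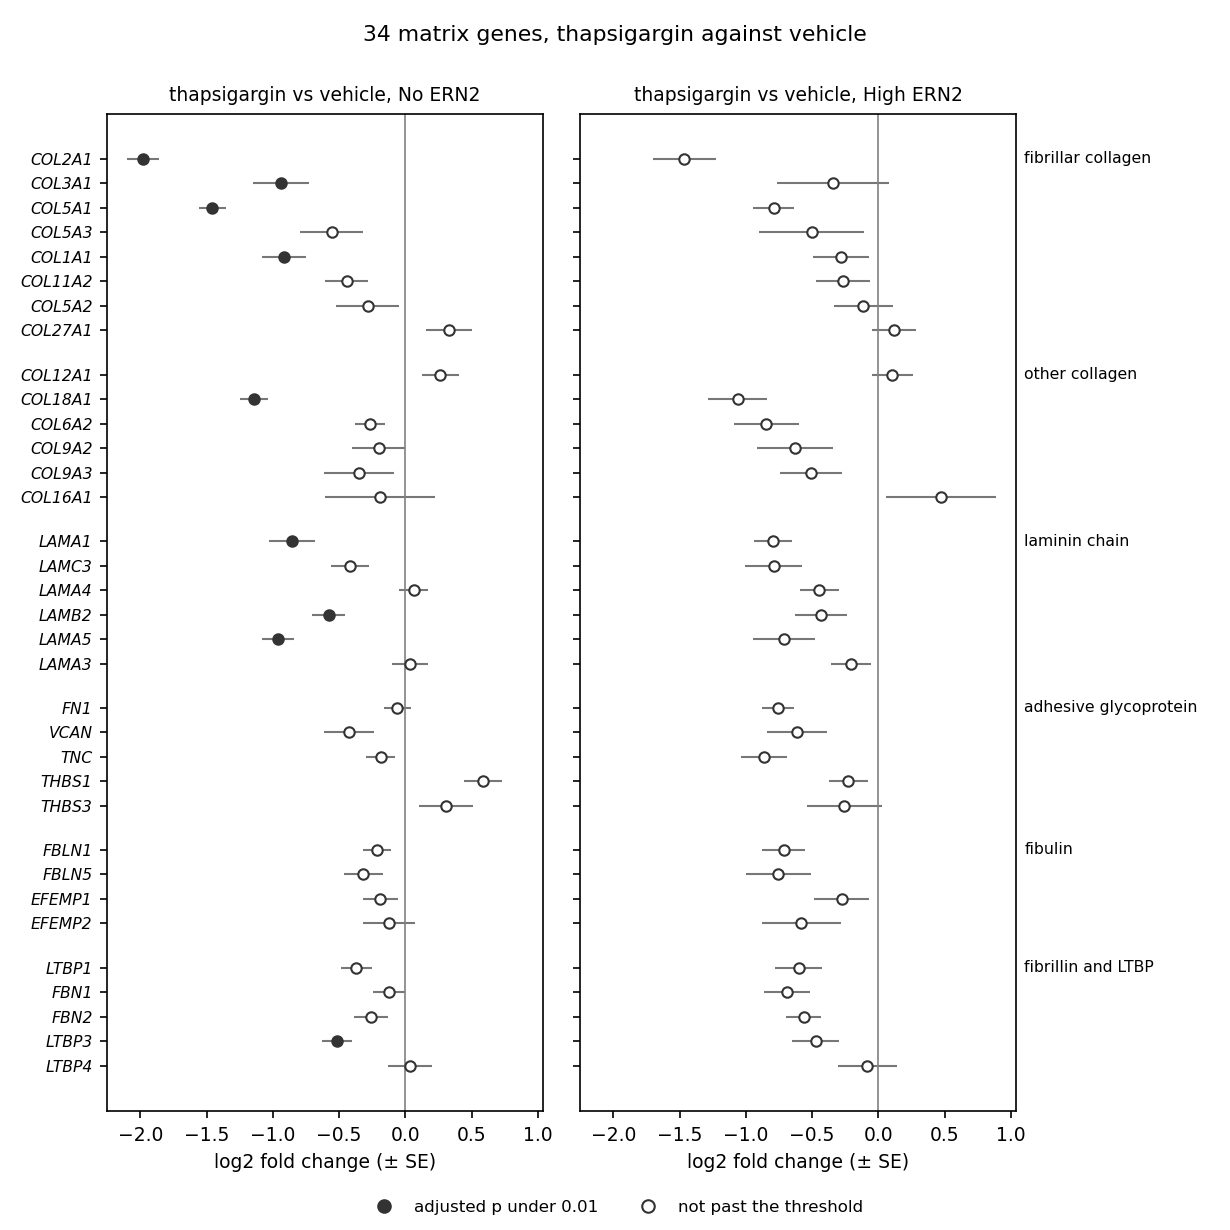
Log2 fold change of thapsigargin against vehicle for the 34 matrix genes, without ERN2 (left) and with High ERN2 (right), grouped by class. Bars are SE and filled points have an edgeR adjusted p under 0.01, 9 genes on the left, all below 0, and 0 on the right.

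Whether High ERN2 changed the response to thapsigargin was tested as an interaction over 12 libraries. Of the members 0 passed (0.0339% of all genes lower, 0.00677% higher), 9 had an unadjusted p under 0.05 (26.5%, close to the 24.7% of all genes) and DESeq2 called 2 (5.88%, beside 2.94%). Without High ERN2 stress replicate 1 edgeR called 2 members (5.88%) and 8.6% of all genes. The smallest adjusted p belonged to FN1, with an interaction of -0.62 on the log2 scale (SE 0.137, adjusted p = 0.0484), then COL5A1 at 0.75 (SE 0.17, adjusted p = 0.0529) and THBS1 at -0.73 (SE 0.205, adjusted p = 0.0817). A negative value means a lower log2 fold change with thapsigargin at High ERN2 than without ERN2, which for FN1 was a deeper fall. The signs of these 3 differed.

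Genes that make, export, cross-link, bind and degrade the matrix were read from 8 further lists in the same High ERN2 control comparison, where 7.49% of all genes were lower. These lists too were chosen with earlier results of these data known. In the ER, 4 of 15 collagen folding and modifying genes fell and 0 rose (median log2 fold change -0.40). They included PLOD3, a lysyl hydroxylase (-1.43, adjusted p = 7.36e-06), CRTAP, of the prolyl 3-hydroxylation complex (-1.20, adjusted p = 1.33e-05), and COLGALT1, which adds galactose to collagen (-1.22, adjusted p = 2.67e-05). Export genes went the other way, with 3 of 16 higher and 0 lower (median 0.22; 0.838% of all genes higher). These were the COPII coat genes SEC24D (1.64, adjusted p = 1.18e-06), SEC24C (0.87, adjusted p = 0.000141) and SEC23B (0.75, adjusted p = 0.000187). Outside the cell, 7 of 13 processing and cross-linking genes fell (median -0.61), among them the procollagen protease ADAMTS2 (-1.72, adjusted p = 9.62e-06) and the lysyl oxidases LOXL1 (-1.54, adjusted p = 9.21e-05) and LOXL2 (-0.95, adjusted p = 0.000197).

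The neighbours of the interstitial matrix in the tissue were lower too. Of 12 core basement membrane genes 10 fell (median -1.26), with COL4A1 at -2.92, LAMC1 at -2.35 and NID1 at -2.27 (adjusted p = 6.52e-08 for each). Of 16 tested proteoglycans and other matrix glycoproteins 7 fell (median -0.62), led by IGFBP7 (-3.02, adjusted p = 1.06e-07), with MFGE8 at -0.95 and NPNT at -1.01. Of 23 matrix receptors 12 fell (median -0.82), including the integrin chains ITGB5 (-2.80, adjusted p = 1.06e-07) and ITGB1 (-2.85, adjusted p = 2.27e-07) and the hyaluronan receptor CD44 (-1.94, adjusted p = 3.49e-06). Of 15 matrix proteases and inhibitors 7 fell (median -0.88), including the gelatinase MMP2 (-1.89, adjusted p = 7.16e-07) and the inhibitors TIMP1 (-2.36, adjusted p = 1.48e-06) and TIMP2 (-1.30, adjusted p = 4.76e-06). Apart from SEC24D, SEC24C and SEC23B, 0 genes of these lists rose. At Low ERN2 in control cells, where 0 matrix members passed, 5 genes of the 8 lists did: COL4A1 (-1.07, adjusted p = 0.00575), LAMC1 (-0.998, adjusted p = 0.00882) and ITGB5 (-1.20, adjusted p = 0.0085) fell, and SEC24D (1.07, adjusted p = 0.0047) and SEC24C (0.69, adjusted p = 0.00935) rose.

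Promoters were searched for 3 motifs over the 250 bases before each listed start site of a gene on both strands (RefSeq, GRCh38.p14). This was done for 26 of the 34 members, those that matched by symbol. The cyclic AMP response element TGACGTCA stood in 2, FN1 and LTBP1 (7.69%, against 2.03% of all 27305 genes with an entry, tested or not). The unfolded protein response element TGACGTGG stood in 0 (0.78% of genes), and the ER stress response element (CCAAT, 9 bases of any kind, CCACG) in 0 (0.0916% of genes).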

How the data were processed

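RNA was sequenced as single-end reads from stranded mRNA libraries. The authors aligned reads with STAR in the VIPER pipeline (build hg38 per the submitters' processing notes) and deposited raw counts per gene symbol, 1 column per library, matched to samples by the column number in each label. The annotation and strand setting of the counting are not given in the sources used here. Columns left unused numbered 0.

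The 38 genes, the further lists and the markers were chosen with earlier results of these data known. edgeR 4.0.16 (R 4.3.3) was run on the whole table, each comparison on its own groups: filterByExpr (minimum count 10), TMM factors, then glmQLFit and glmQLFTest. A call is a Benjamini-Hochberg adjusted p under 0.01. SE is the log2 fold change divided by the root of F. CPM use TMM over all 18 libraries. Replicates of a group differed beyond sampling noise (chi-square per degree of freedom 6.99 to 60.2), so each counted as 1. Values in every library are given for members called with High ERN2, at most 4 per class and smallest adjusted p first, for every member called with thapsigargin, and up to 3 genes per further list. Others are named with ranges. COL5A3, COL27A1, LAMA3, LAMA5, THBS1 and THBS3 were singled out in the High ERN2 control comparison after their values were seen. Low ERN2, interaction and replicate values of FN1, FBLN1, COL2A1 and COL5A1 were also chosen after they were seen.

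Replicate numbers come from the labels, and every same-numbered pair correlated above 0.1 only between Low and No ERN2 under stress. Alternatives were DESeq2 1.42.0, RLE factors, library totals, no filter, all 6 groups in 1 fit, a replicate block, a threshold of 0.05 and each library left out. The edgeR fit was tested on simulated data, and DESeq2 was not. Transcripts, exon positions and coding sequences came from GENCODE 29, promoters from RefSeq. Figures used matplotlib 3.10.9 in Python 3.11.15. With 3 libraries per group, an exact permutation test could not reach 0.05, so fits across genes were used.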

Additional observations from a re-analysis of the deposited data

How the results depend on the processing

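With any 1 library left out, High against No ERN2 gave 20 to 22 members in control cells (915 to 1397 of all genes) and 18 to 24 under stress (763 to 3950 of all genes, the most without High ERN2 stress replicate 1). Leaving out 1 library gave 0 to 9 (0 to 2743 of all genes) for Low against No ERN2 in control cells. It gave 0 to 16 (0 to 496 of all genes) for High against Low. Thapsigargin gave 4 to 8 without ERN2 (731 to 1901 of all genes) and 0 to 14 with High ERN2 (4 to 2568). Low ERN2 under stress gave 0 to 0 (0 to 0 of all genes) and the interaction 0 to 2 (2 to 1286). For Low ERN2 in control cells, DESeq2 called 8 and the fit without a filter 9, the replicate block 4 and a threshold of 0.05 gave 3, against 0 (over all genes 381, 623, 124 and 110, against 28). For thapsigargin with High ERN2 these were 9 with DESeq2, 6 without a filter, 8 with all 6 groups in 1 fit and 8 at a threshold of 0.05, against 0 (over all genes 732, 299, 941 and 494, against 29). DESeq2 called 1 for Low ERN2 under stress and 2 for the interaction, where edgeR at a threshold of 0.05 called 1, each against 0 (over all genes 39, 341 and 149, against 0, 6 and 6).

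The replicate block also gave 23 for High against Low ERN2, against 14 (over all genes 1224, against 356), and 13 for Low ERN2 under stress, against 0 (over all genes 564, against 0). It gave 12 against 9 for thapsigargin without ERN2 (over all genes 3571, against 1611). LAMB2 lost its call for High ERN2 in control cells with the block, and COL5A3 and COL9A2 gained a call there with DESeq2 and without a filter, as did COL27A1 with DESeq2. Library totals moved the median of all genes in the interaction from 0.04 to -0.14. Of 1392 alternatives for 116 values of single members, 1283 kept direction and call, 65 lost the call, 30 gained it and 14 changed sign, none of the last called in either fit. The causes were not tested.

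The sign changes came with 1 library left out. With thapsigargin and no ERN2 the ranges were -0.12 to 0.018 for FN1, -0.19 to 0.0089 for FBN1, -0.060 to 0.23 for LAMA3, -0.0083 to 0.16 for LAMA4, -0.33 to 0.030 for COL9A2, -0.51 to 0.092 for COL16A1, -0.30 to 0.14 for EFEMP2 and -0.067 to 0.27 for LTBP4. With High ERN2 they were -0.48 to 0.078 for COL16A1 and -0.23 to 0.046 for LAMA3 in control cells, and -0.49 to 0.015 for LAMA5 and -0.30 to 0.32 for THBS3 under stress.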
